A study of Mus musculus with 4 samples.

Results

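Smoc2 Col15a1 fibroblasts were 7409 cells of tibial muscle, out of 62665 cell barcodes in 4 single-cell RNA sequencing libraries. They were selected on measured values. A cell belonged to them when at most 10% of its unique molecular identifiers (UMIs, which count captured transcripts) were mitochondrial, when it held at least 1 UMI of Pdgfra and at least 3 UMIs of Smoc2 and Col15a1 together, and when it held 0 UMIs of Ptprc and of Pi16 and at most 2 of C7 and Gdf10 together. Pdgfra encodes a receptor for platelet-derived growth factor that marks mesenchymal cells, and Ptprc encodes CD45 of white blood cells. The 7 genes of this gate are therefore described below without a test. The members made up 33.5% of the 22104 cells with Pdgfra and without Ptprc UMIs.

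All libraries came from C57BL/6 mice of genotype Nse-Bmp4, aged 6-8 week, in which the neuron specific enolase promoter drives Bmp4 and which serve as a model of heterotopic ossification, the growth of bone in soft tissue. The transgene was present in every group, and no library of mice without it was analysed here. The groups were Uninjured muscle and muscle 1, 3 or 7 days after cardiotoxin injury (dpi, days post injury). Each group was a single library made from a pool of 3 tibial muscles digested with collagenase, so a difference between time points cannot be told apart from a difference between pools or libraries, and no test between time points was made.

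Uninjured held 2778 members, 1 dpi 1314, 3 dpi 2056 and 7 dpi 1261. Their summed depth was 25765313, 13155541, 24635080 and 13985661 UMIs in that order, and the median member held 8695, 8091.5, 6933.5 and 9671 UMIs. Values below are CPM, in which all UMIs that members of a library held of a gene are divided by the total of those members and scaled to 1000000, with exact Poisson 95% intervals. Shares of cells have exact Clopper-Pearson intervals. Both kinds of interval cover counting error only. Pairs of libraries shared between 30 and 95 barcodes, and of the members a single barcode occurred in Uninjured and in 1 dpi.

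Fibroblasts of muscle fill the space between fibres and around vessels and secrete the collagen network and much of the basement membrane that wraps each fibre. A basement membrane is a sheet of type IV collagen and laminin networks tied together by nidogens and perlecan, with types XV and XVIII collagen and SMOC proteins at its surface. After injury such cells take up roles in inflammation, matrix repair and, in models of heterotopic ossification, in the formation of cartilage and bone.

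The gate held cells of different makeup at different times. Uninjured members carried a median of 36 UMIs of Smoc2 and Col15a1, 1 dpi members 23, 3 dpi members 11 and 7 dpi members 5. Cells with UMIs of both genes made up 96.0%, 88.1%, 67.9% and 51.8% of the members, and cells with Smoc2 but no Col15a1 made up 3.13%, 11.1%, 30.3% and 42.9%. Smoc2, which encodes a calcium-binding matricellular protein, stood at 3513, 2445, 1113 and 580 CPM. Col15a1, a collagen at the outer face of basement membranes, stood at 1010, 700, 248 and 228 CPM. The threshold lay in a sparse range of the Uninjured library, where 40 cells had exactly 3 UMIs of this pair and 29 had 2. At 7 dpi it cut through a dense one, with 320 cells at 3 UMIs and 515 at 2. Cxcl14 just inside and just outside the threshold stood at 1087 and 557 CPM in Uninjured, 936 and 378 at 1 dpi, 1393 and 780 at 3 dpi, and 291 and 175 at 7 dpi.

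The 7 dpi library stood apart from the others in another respect. Of its members, 70.5% held a UMI of Tnn or Lrrc15 or at least 3 UMIs of the cartilage matrix genes Col2a1 and Acan together, against 0.90% in Uninjured, 0.84% at 1 dpi and 18.3% at 3 dpi. Tnn (tenascin N) and Lrrc15 are known from activated and bone-forming stroma. These cells contributed 83.3% of the members' UMIs at 7 dpi and 41.8% at 3 dpi. Their median depth was 50128, 9895, 25337 and 11895 UMIs in Uninjured, 1, 3 and 7 dpi, against 8669, 8057, 5542 and 5058.5 in the other members. Values without them thus also leave out deeper cells. Ptprc-positive cells without Pdgfra, taken on any UMI of Ptprc, held a Col2a1 UMI in 43.4%, an Acan UMI in 30.4% and a Tnn UMI in 22.2% of cells at 7 dpi. Such UMIs were thus not confined to Pdgfra-positive cells, and how they came into the Ptprc-positive cells was not tested. The counts and medians of gene lists are therefore given with all members and, where a printed one moved by over 1.5 times, also without the cells carrying these UMIs, a split chosen after the data had been seen.

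Apart from the gate genes, the label of these cells rests on 4 markers, which had been picked with these data known and are described without a test. Cxcl14 encodes a chemokine of resting tissue. Crispld2 encodes a secreted protein induced by glucocorticoids, Hsd11b1 the enzyme that regenerates active glucocorticoid inside cells, and Col4a3 a chain of type IV collagen. Cxcl14 (ENSMUSG00000021508, GRCm38 chr13, 56288643 to 56296551, minus strand) stood at 5068 CPM (5040 to 5095) in Uninjured, 3628 (3596 to 3661) at 1 dpi, 2377 (2358 to 2396) at 3 dpi and 744 (729 to 758) at 7 dpi. It was thus highest before injury and lowest at the last time point. Crispld2 (ENSMUSG00000031825, chr8, 119992438 to 120052793, plus strand) stood at 727, 960, 366 and 139 CPM, and Hsd11b1 (ENSMUSG00000016194, chr1, 193221634 to 193264075, minus strand) at 395, 494, 195 and 47.8 CPM, so that both were highest at 1 dpi. Col4a3 (ENSMUSG00000079465, chr1, 82586921 to 82722059, plus strand) stood at 60.6, 30.6, 6.78 and 2.36 CPM. From 3 to 7 dpi the CPM ratio was 0.313 for Cxcl14, 0.380 for Crispld2, 0.245 for Hsd11b1 and 0.348 for Col4a3. Without the cells carrying Tnn, Lrrc15 or cartilage UMIs these ratios were 0.920, 0.769, 0.647 and 1.08.

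**Figure D1:**
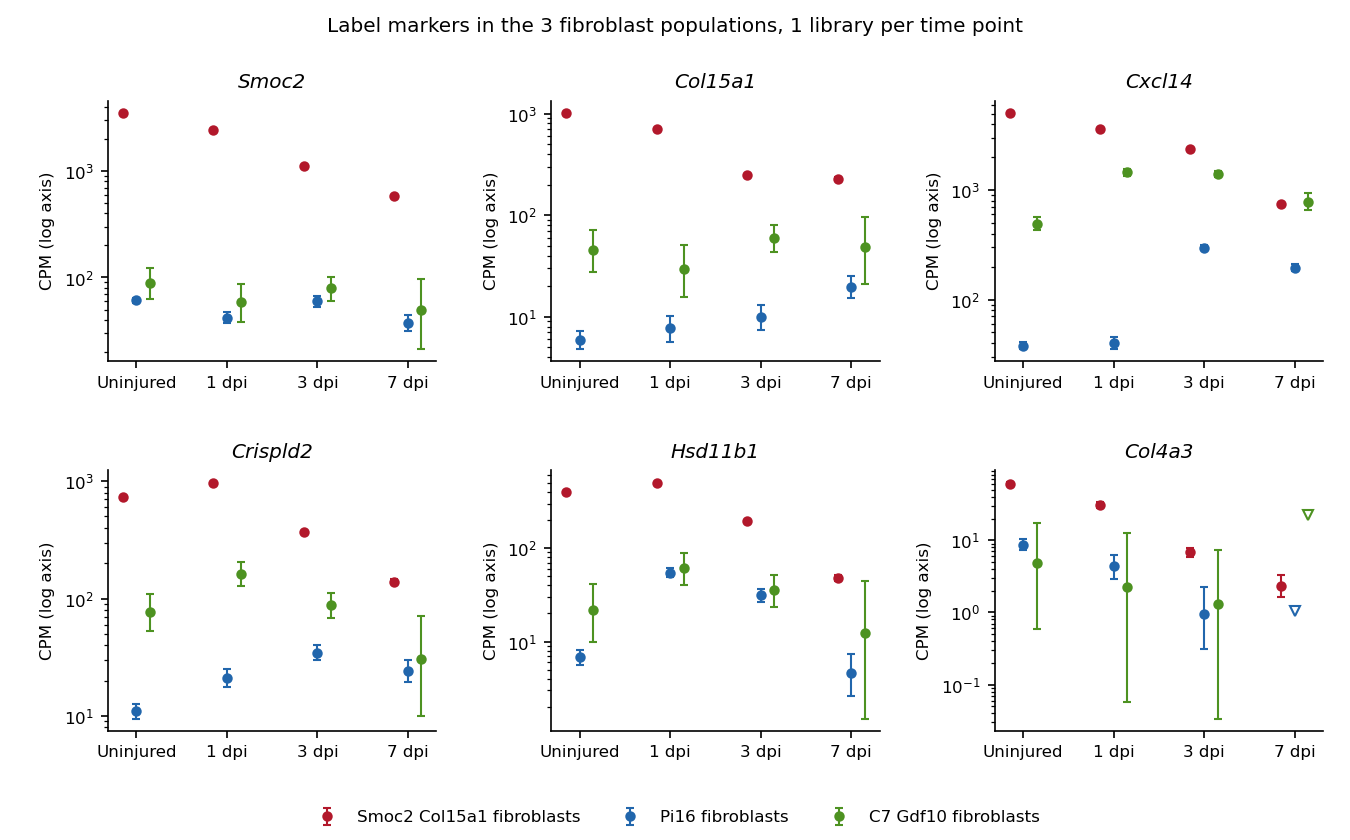
CPM (log axis) of the 6 label markers in Uninjured, 1, 3 and 7 dpi for Smoc2 Col15a1 fibroblasts (red), Pi16 fibroblasts (blue) and C7 Gdf10 fibroblasts (green), 1 library per time point, with exact Poisson 95% intervals; open triangles are upper limits where a population had 0 UMIs. Cxcl14 of the red points runs from 5068 CPM in Uninjured to 744 CPM at 7 dpi, where the green point (784 CPM) lies at the same height.

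The share of members with a marker UMI differed widely between the markers. To compare shares at equal depth, each cell was thinned at random to 3000 UMIs, which left out 101, 91, 323 and 147 members with fewer. Cxcl14 was then found in 89.0% of Uninjured, 84.7% of 1 dpi, 77.9% of 3 dpi and 38.8% of 7 dpi members (92.8%, 90.4%, 88.2% and 52.7% without thinning). In Ptprc-positive cells without Pdgfra, whose median depth was 4097, 4835, 3547.5 and 2468.5 UMIs, the thinned share was 7.73%, 8.06%, 10.5% and 14.7%. Crispld2 was found in 76.3%, 79.6%, 56.7% and 27.2% of thinned members, against 9.33% of the Ptprc-positive cells at 7 dpi. Hsd11b1 was found in 60.8%, 69.4%, 43.7% and 13.7% of thinned members, against 6.16% of Ptprc-positive cells at 7 dpi. Col4a3 was found in 16.9%, 10.6%, 4.10% and 1.35%, so that even in Uninjured muscle most members showed none at this depth. The markers thus lay above the share in Ptprc-positive cells in each library, and the word interstitial in the label, a location, was not measured in dissociated cells.

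**Figure D2:**
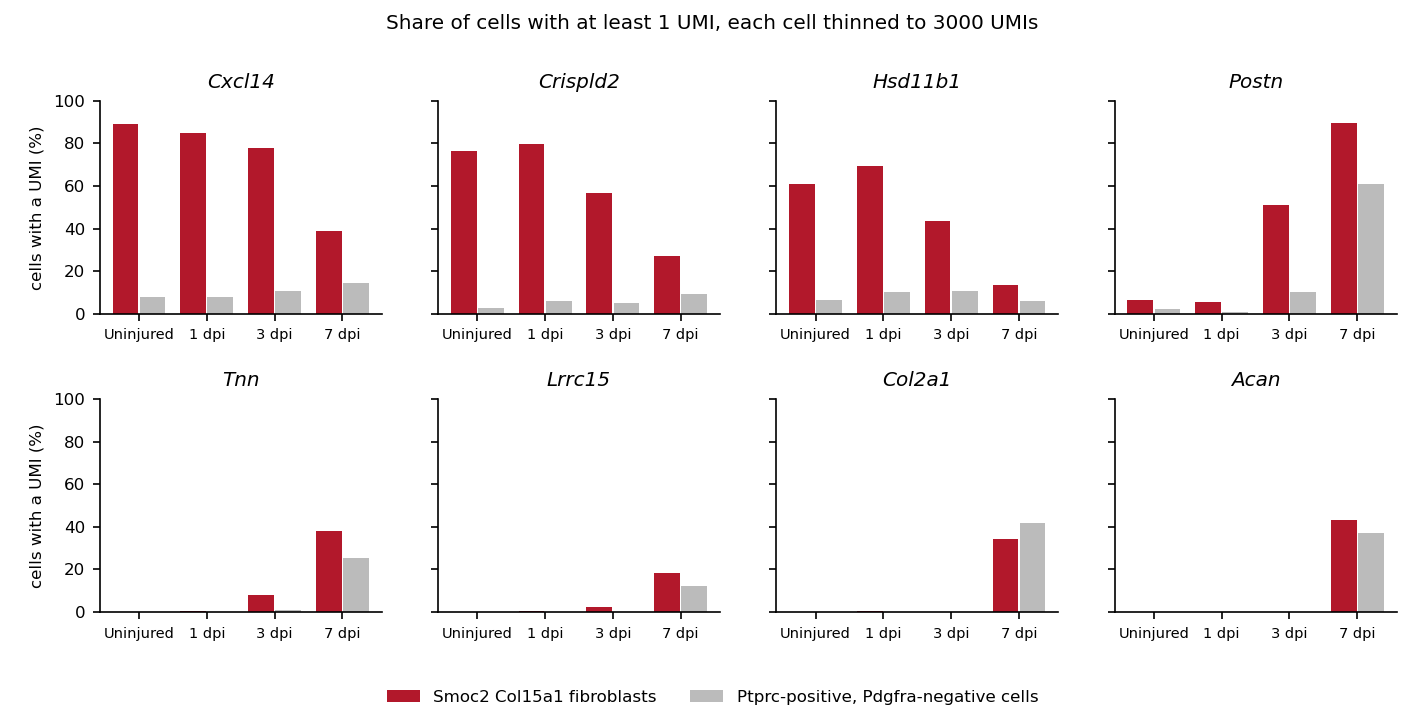
Share of cells (%) with at least 1 UMI of 8 genes after thinning each cell to 3000 UMIs, for Smoc2 Col15a1 fibroblasts (red) and Ptprc-positive cells without Pdgfra (grey) in the 4 libraries. Cxcl14, Crispld2 and Hsd11b1 stand above the grey bars throughout, whereas at 7 dpi Col2a1 is found in 34.2% of members and 41.6% of Ptprc-positive cells.

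At 7 dpi the split by Tnn, Lrrc15 and cartilage UMIs separated cells of unlike marker level. The 372 members without such UMIs (median depth 5058.5 UMIs) held Cxcl14 at 3139 CPM, Crispld2 at 386, Hsd11b1 at 205, Col4a1 at 1583 and Dcn, the proteoglycan decorin, at 9294 CPM. The 889 members with them (median depth 11895 UMIs) held these genes at 264, 89.6, 16.5, 149 and 2309 CPM. Postn (periostin) stood at 2091 CPM without and 3596 CPM with such UMIs, and Acta2 (smooth muscle actin) at 425 and 1323 CPM. In members thinned to 3000 UMIs at 7 dpi, Tnn or Lrrc15 was found in 29.2% of those with Cxcl14 and in 57.3% of those without it.

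Members formed 34.1% (33.1 to 35.2) of Pdgfra-positive, Ptprc-negative cells in Uninjured, 38.6% (36.9 to 40.2) at 1 dpi, 39.6% (38.2 to 40.9) at 3 dpi and 23.5% (22.4 to 24.7) at 7 dpi. The lowest share was that of 7 dpi. The order of the others depended on depth, since with every cell thinned to 3000 UMIs before the gate the shares were 46.7%, 44.1%, 32.9% and 14.9%.

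Col4a3 lies next to Col4a4 (ENSMUSG00000067158, chr1, 82448423 to 82586849, minus strand) in head-to-head arrangement, and both chains enter the same type IV collagen network. Their levels are shown with the stretch that separates the annotated starts of the genes because both genes followed the same order over the libraries. Col4a4 stood at 113, 88.8, 25.8 and 6.15 CPM in Uninjured, 1, 3 and 7 dpi, and Col4a3, given above, was likewise highest in Uninjured and lowest at 7 dpi. The stretch spans 71 bases, GRCm38.p6 chr1:82586850-82586920, plus strand, taken from RefSeq, with the motif CACCC in capitals.
Between Col4a4 and Col4a3: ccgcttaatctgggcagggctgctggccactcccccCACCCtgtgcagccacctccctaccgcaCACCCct
The letters CACCC occurred at 2 places. The search covered both strands, on which this motif also reads GGGTG when taken in reverse. GGGCGG, searched on both strands, occurred at 0 places. The same held for the letters TATAAA. The motifs do not overlap one another here. Of 32851 RefSeq windows of the same length directly before a gene start, 20.3% held CACCC on either strand. For GGGCGG this share was 20.7% of windows. It was 4.41% for TATAAA.

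To ask where these cells differed from other fibroblasts of the same libraries, their summed UMIs were set against those of Pi16 fibroblasts and of C7 Gdf10 fibroblasts. Pi16 fibroblasts were 3132 Pdgfra-positive, Ptprc-negative cells with at least 3 UMIs of Pi16, and C7 Gdf10 fibroblasts were 198 such cells with at least 3 UMIs of C7 and Gdf10 together and 0 of Pi16; both had at most 2 UMIs of Smoc2 and Col15a1. The test was edgeR's quasi-likelihood test over the 4 libraries with the library as a block and Benjamini-Hochberg adjustment over 12249 genes, the gate genes left out. The libraries are different time points, so the p-values measure how steady a difference was across them. Populations were separated by transcripts of the same cells, which bears on any gene that goes with those transcripts, and both comparisons share the sums of the members.

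Against Pi16 fibroblasts, known as the cells of the adventitia around vessels, the members had more higher than lower calls among basement membrane, collagen, small leucine-rich proteoglycan and lipid handling genes, and lower calls in all adventitial genes tested. Of all genes tested, 1082 were called higher, 8.83%, and 999 lower, 8.16%, at an adjusted p of at most 0.05. The median over all genes was 0.01 on the log2 scale. The number of calls depended on the early libraries: 612 were higher and 658 lower without 1 dpi, and 677 and 655 without Uninjured. Without the cells carrying Tnn, Lrrc15 or cartilage UMIs, 1409 of 11436 genes were higher, 12.3%, and 1299 lower, 11.4%, and list counts without those cells are to be read against these shares.

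The label markers are left out of the list counts that follow. Of 28 other basement membrane genes outside the gate, 21 passed the filter on low counts and were tested. Of these, 11 were higher and 3 lower, with a median log2 fold change of 0.82. Col4a1, the main chain of type IV collagen, stood at 2526, 1777, 888 and 388 CPM in Uninjured, 1, 3 and 7 dpi members and at 229, 295, 197 and 95.3 CPM in Pi16 fibroblasts. The groups did not overlap, and the log2 fold change was 2.57 ± 0.26 (SE, adjusted p = 2.17e-05 by edgeR). Its partner Col4a2 had 2.65 ± 0.26, Col4a4 had 2.05 ± 0.21, Col18a1, source of endostatin, had 2.10 ± 0.28, and Nid2 (nidogen 2) had 2.11 ± 0.28. Sparcl1, a SPARC-like matricellular gene, showed 424, 320, 220 and 99.2 CPM against 14.6, 27.7, 31.7 and 21.1 CPM, a log2 fold change of 3.34 ± 0.33. Perlecan (Hspg2, 1.23 ± 0.26) and laminin beta 1 (Lamb1, 1.13 ± 0.24) were higher by less, and each lost its call in 1 of 13 alternative analyses. Laminin alpha 2 (Lama2, 0.82 ± 0.24) lost it in 3.

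Members of the same sheet went the other way or showed no call. Laminin beta 2 (Lamb2, -0.68 ± 0.14) was lower, and nidogen 1 (Nid1, -0.55 ± 0.16) was lower with 5 of 13 alternatives losing the call. Laminin gamma 1 (Lamc1) showed a log2 fold change of -0.00 ± 0.21 and Sparc, the most abundant gene of the list, -0.05 ± 0.17. Lamc3, another gamma chain too scarce to be tested with all members, stood at 45.0, 24.1, 6.66 and 1.57 CPM in members. Pi16 fibroblasts held 4, 0, 2 and 0 UMIs of it and C7 Gdf10 fibroblasts 0 in every library, where the upper limit of the latter ranged from 4.86 to 22.6 CPM.

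**Figure D3:**
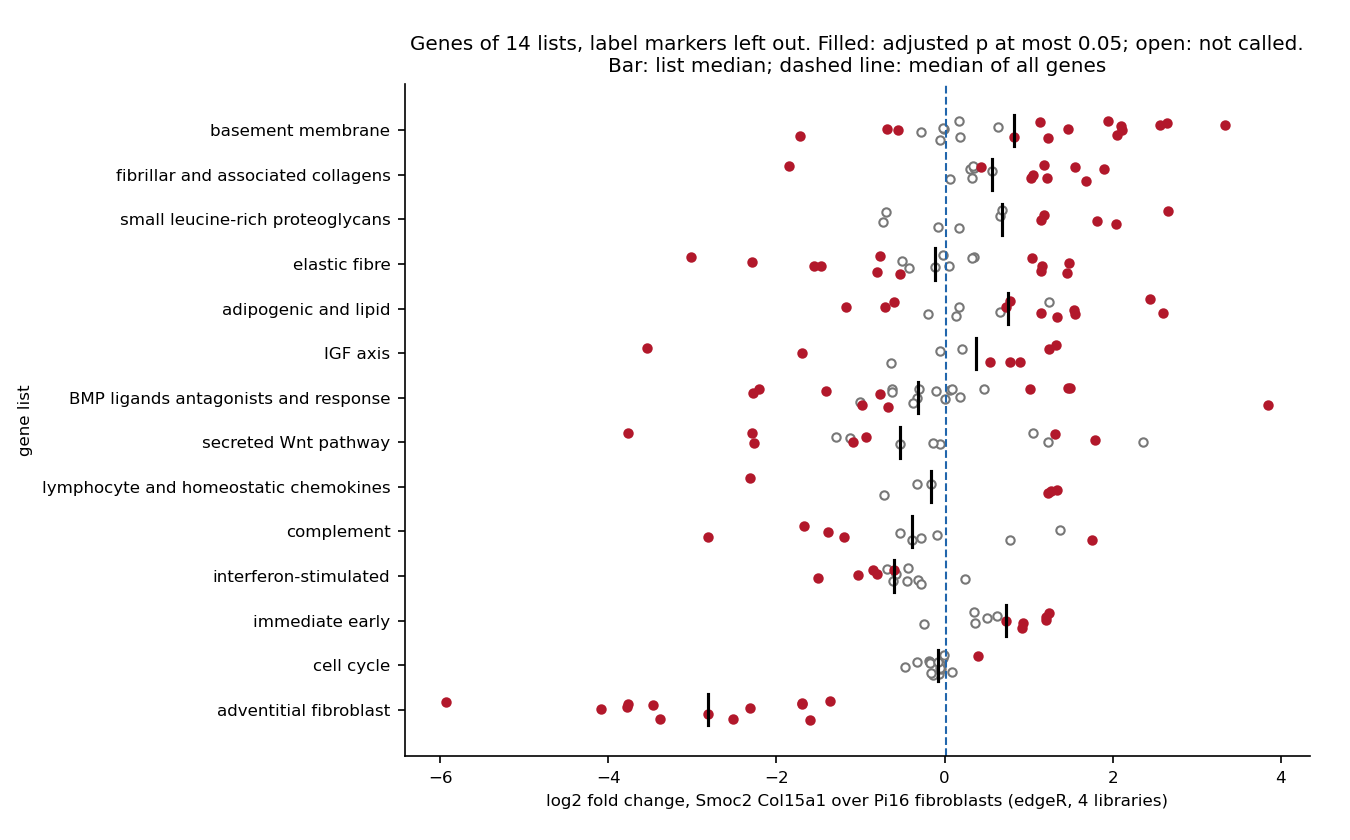
Log2 fold change of Smoc2 Col15a1 over Pi16 fibroblasts (edgeR, 4 libraries) for the genes of 14 lists, label markers left out; filled points have an adjusted p of at most 0.05, open points have not, bars are list medians and the dashed line is the median of all genes. Basement membrane genes have a median of 0.82 and adventitial genes one of -2.82, with all 13 of the latter lower.

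In the collagen list of 15 genes, 8 were higher and 1 lower, with a median of 0.57. The 3 main chains of collagen VI, which links basement membrane to the interstitial matrix, were among them, as in Col6a3 with 1469, 1099, 941 and 986 CPM against 477, 379, 402 and 634 CPM (1.22 ± 0.17). Col6a6 had 1.68 ± 0.28. Col14a1 was the lower one (-1.85 ± 0.23), at 189, 69.2, 275 and 411 CPM in members against 784, 408, 669 and 957 CPM. Of 11 small leucine-rich proteoglycan genes, which shape collagen fibrils, 5 were higher and the others showed no call (median 0.68), whereas without the cells carrying Tnn, Lrrc15 or cartilage UMIs 6 of 10 were higher and 2 lower (median 1.09). Lumican (Lum) stood at 1728, 939, 633 and 1027 CPM against 259, 130, 180 and 625 CPM (2.04 ± 0.31), and podocan (Podn) had 1.81 ± 0.28. Decorin, most abundant of the list, had 23285, 15553, 8536 and 3474 CPM against 9143, 7282, 7230 and 3480 CPM, with no call (0.66 ± 0.23, adjusted p = 0.067). Elastic fibre genes were mixed, with 5 of 19 higher and 7 lower (median -0.12).

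All 13 adventitial genes tested were lower, with a median of -2.82. Since Pi16 UMIs defined the comparison cells and these genes were listed for going with Pi16, this describes the separation of the gates. Dpp4 stood at 26.1, 26.4, 16.8 and 5.65 CPM in members and 326, 290, 218 and 105 CPM in Pi16 fibroblasts, and Sema3c at 41.0, 56.2, 44.7 and 45.2 against 538, 583, 440 and 364 CPM. Fn1 (fibronectin) differed least (-1.36 ± 0.30).

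Lipid handling genes were higher in 8 of 16 cases and lower in 3 (median 0.76). Apod, a carrier of small lipids, stood at 1168, 1644, 646 and 517 CPM against 97.2, 187, 228 and 121 CPM (2.59 ± 0.32), and Lpl, the lipase that frees fatty acids from lipoproteins, at 1219, 864, 429 and 206 against 272, 192, 201 and 131 CPM (1.54 ± 0.27). The regulator Cebpa was also higher (1.33 ± 0.28). Lower were Ebf1, Ebf2 and Zfp423, factors of early adipose commitment. Of the 6 markers of mature adipocytes only Car3 passed the filter on low counts, and 57.6% of its Uninjured UMIs lay in a single cell.

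Ligands and inhibitors of the BMP pathway did not move together, with 4 of 22 higher and 6 lower (median -0.32), or 3 of 21 and 9 (median -0.11) without the cells carrying Tnn, Lrrc15 or cartilage UMIs. Bmp5 stood at 109, 59.8, 24.1 and 10.0 CPM in members against 3.39, 3.38, 3.86 and 2.28 CPM (3.85 ± 0.37). Bmp4 itself stood at 170, 128, 63.3 and 22.2 CPM against 53.2, 35.9, 43.1 and 25.4 CPM (1.01 ± 0.30, adjusted p = 0.0339, lost in 4 of 13 alternatives), overlapping at 7 dpi, and the counts do not separate the transgene from the endogenous gene. Bmper, which binds BMPs outside the cell, was higher (1.49 ± 0.40). Bmp6 was lower, at 6.64, 8.29, 5.07 and 3.86 CPM against 31.5, 42.8, 19.9 and 20.3 (-2.29 ± 0.15), as were Bmp2, Bmp7, Chrd, Chrdl1 and Fstl1. Id1 and Id3, target genes of BMP signalling, showed no call (0.07 ± 0.39 and -0.33 ± 0.20).

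Secreted Wnt genes had 2 of 15 higher and 5 lower (median -0.52), or 2 of 12 and 7 (median -0.83) without the cells carrying Tnn, Lrrc15 or cartilage UMIs. The Wnt inhibitors split, with Sfrp1 higher (1.31 ± 0.25), and Sfrp2 (39.2, 18.2, 192 and 446 CPM against 530, 186, 423 and 1018) and Sfrp4 lower (-2.27 ± 0.44 and -2.29 ± 0.18). In the insulin-like growth factor axis 5 of 10 genes were higher and 2 lower (median 0.38). Igfbp7 stood at 2356, 738, 1160 and 1800 CPM against 364, 240, 648 and 1335 CPM (1.32 ± 0.28), while Igfbp5 was far lower, at 151, 166, 96.2 and 533 against 3298, 2186, 1687 and 1373 CPM (-3.54 ± 0.43). Igf1 was higher by 0.77 ± 0.21, with the call lost in 2 of 13 alternatives.

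Among genes of inflammation, homeostatic and lymphocyte-attracting chemokines had 3 of 7 higher and 1 lower (median -0.16), and 3 of 6 higher and 1 lower without the cells carrying Tnn, Lrrc15 or cartilage UMIs, where the median turned to 0.74. Cxcl12, the ligand of CXCR4, stood at 153, 309, 332 and 209 CPM against 40.9, 120, 154 and 138 CPM (1.23 ± 0.19), and Cxcl13, which draws B cells, at 18.6, 26.6, 153 and 10.8 against 93.2, 380, 435 and 20.3 CPM (-2.32 ± 0.63). Complement genes had 4 of 11 lower, among them C3 (-1.38 ± 0.23) and C4b (-1.68 ± 0.19). Interferon-stimulated genes were lower in 5 of 13 cases with no call for the others (median -0.60), as in Irf7 with 18.4, 122, 44.4 and 17.1 CPM against 40.8, 338, 98.7 and 74.5 (-1.51 ± 0.15). Acute phase and IL-6 family genes went both ways, with 3 of 17 higher, Saa1, Saa2 and Steap4, and 4 lower, Saa3, Ptx3, Il6 (-1.17 ± 0.28) and Il6ra (median 0.24), or 7 of 16 higher and 3 lower without those cells. Of 4 neutrophil-attracting chemokines 1 was lower, Cxcl3, with no call for the others, and 2 were lower without those cells. Immediate early genes, which also respond to tissue dissociation, had 6 of 11 higher and no call for the others (median 0.73), and 9 of 11 higher without those cells. Glucocorticoid-responsive Tsc22d3 and Sgk1 were higher by 0.96 ± 0.25 and 1.15 ± 0.22, the 2 of 12 genes of that list that were called, against 6 of 12 without those cells, where 12.3% of all genes were higher.

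Genes of activation, cartilage and bone were counted with and without the cells carrying Tnn, Lrrc15 or cartilage UMIs, against the shares of all genes given above for each fit. Activated fibroblast genes had 9 of 23 higher and 1 lower, and 8 of 20 higher and 3 lower without those cells. The split itself used Tnn and Lrrc15 of this list, and Col2a1 and Acan of the chondrogenic list. Markers of other cell types were called against Pi16 fibroblasts too. Tenocyte genes had 3 of 5 higher (Scx, Thbs4 and Fmod) and 0 lower, or 2 of 3 and 0 without those cells. Pericyte and smooth muscle genes had 2 of 8 higher (Notch3 and Acta2) and 1 lower, or 4 of 6 and 0 without those cells. Schwann cell genes had 2 of 5 higher and 0 lower. Their part in the values of the members was not tested. Of 18 chondrogenic genes 9 passed the filter on low counts. Of these, 5 were higher with no call for the others. Without the cells carrying Tnn, Lrrc15 or cartilage UMIs, 3 of 6 were higher and 1 lower. The 5 included Col11a1 and Col11a2, of which 80.2% and 92.1% of the UMIs in 1 dpi members lay in 1 cell. Osteogenic genes had 5 of 8 higher and 1 lower, and 3 of 6 higher and 2 lower without them. Without the 7 dpi library chondrogenic genes had 2 of 5 higher and 1 lower. In that fit 1200 of all 12420 genes were higher and 1069 lower. Alpl, alkaline phosphatase, differed in each library, at 45.5, 74.8, 14.98 and 194 CPM against 0.416, 1.93, 0.772 and 25.4 CPM (4.38 ± 0.43). Its values in Pi16 fibroblasts of Uninjured and 3 dpi rest on few UMIs, so the fitted fold is not well determined. Sox9, the master factor of cartilage, stood at 55.9, 49.5, 41.0 and 165 CPM against 11.2, 11.3, 24.9 and 53.1 CPM (1.64 ± 0.25). At 7 dpi members without Tnn, Lrrc15 or cartilage UMIs held 54.5 CPM of Alpl and 76.7 CPM of Sox9. For basement membrane genes the counts without those cells were 11 of 22 higher and 2 lower, where Lamc3 was tested too and passed the filter on low counts through the members.

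The genes of largest fitted fold change were scarce in Pi16 fibroblasts and passed the filter on low counts through the members, so their fitted folds are not well determined. Lrrtm3, a leucine-rich synaptic adhesion gene, had 1499, 698, 390 and 54 UMIs in members and 1, 8, 1 and 0 UMIs in Pi16 fibroblasts. The neurexin gene Nrxn2 had 1184, 355, 212 and 95 UMIs in members and 6, 1, 2 and 2 in Pi16 fibroblasts. Itih2, the kinase gene Hunk, Cst6 and Itga8, the integrin alpha 8 chain, were of the same kind, with 1, 9, 4 and 6 UMIs in all Pi16 fibroblasts together. Fbln7, which encodes a fibulin, was better covered, at 254, 155, 70.6 and 70.2 CPM against 0.713, 0.644, 1.74 and 14 (5.58 ± 0.74). Furthest below were Akr1c18, Krtdap and Dmkn, of which the latter encode secreted proteins known from epidermis. Krtdap stood at 1.01, 0.456, 0.528 and 1.00 CPM against 353, 274, 44.6 and 28.8 CPM, which in members rested on 26, 6, 13 and 14 UMIs.

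Against C7 Gdf10 fibroblasts, with 48, 39, 92 and 19 cells, 127 genes were higher, 1.04% of those tested, and 235 lower, 1.92%, with a median over all genes of 0.06. Few cells stood behind these counts, which were 21 and 92 without 1 dpi, 60 and 128 without Uninjured, and 62 and 85 without 3 dpi. Of 11436 genes, 328 were higher, 2.87%, and 354 lower, 3.1%, without the cells carrying Tnn, Lrrc15 or cartilage UMIs. Complement and secreted Wnt genes were among those lower in members. Of 11 complement genes 7 were lower and the others showed no call (median -1.78), as in C4b with 36.7, 45.5, 67.5 and 60.4 CPM against 363, 665, 664 and 526 (-3.50), and of 15 secreted Wnt genes 5 were lower (median -1.36), as in Sfrp4 with 42.5, 30.6, 51.9 and 42.4 CPM against 853, 404, 1089 and 1494 (-4.47). Basement membrane genes other than the marker had 6 of 21 higher and 1 lower (median 0.64), or 13 of 22 and 3 (median 1.01) without those cells. Lamb1 stood at 573, 368, 252 and 170 CPM against 53.2, 65.8, 72.5 and 91.8 (2.14). Of 22 BMP genes 3 were called higher and 6 lower, or 4 and 10 of 21 without those cells. The higher ones were Bmp2, Bmp5 and Bmp6, of which Bmp6 had 0 UMIs in C7 Gdf10 fibroblasts of every library and passed the filter on low counts only through the other populations. Among the lower ones were Chrdl1, Fst, Id2, Id3 and Id4. Chrdl1, a BMP antagonist, stood at 6.75, 9.20, 19.7 and 16.0 CPM against 96.7, 116, 190 and 135 (-3.52). Abcc9 and Kcnj8, which encode the subunits of a potassium channel known from pericytes, were lower as well (-4.87 and -4.21). Of the 8 pericyte and smooth muscle genes tested these 2 were lower and 2, Des and Acta2, were higher. Without the cells carrying Tnn, Lrrc15 or cartilage UMIs, 1 of 6 was higher and 2 lower. Apod and Lpl, higher than in Pi16 cells, showed no call here (0.17 and -0.02).

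Over time the values of the members are descriptions of single libraries, with a gene counted as different at a CPM ratio of at least 2.0 in either direction and at least 20 UMIs over both libraries. From Uninjured to 1 dpi, 1168 of 13678 genes were at least 2-fold higher, 8.54%, and 824 lower, 6.02%. From 1 to 3 dpi these were 1065 (7.72%) and 1133 (8.21%) of 13804 genes. From 3 to 7 dpi they were 1342 (9.58%) and 1159 (8.27%) of 14011 genes. The median over all genes was 0.12, -0.08 and -0.10 on the log2 scale. Without the cells carrying Tnn, Lrrc15 or cartilage UMIs, 9.48%, 5.58% and 6.31% of genes were at least 2-fold higher at the 3 steps and 6.09%, 3.39% and 6.64% lower.

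At 1 dpi interferon-stimulated genes stood out, with 11 of 14 at least 2-fold higher than in Uninjured and 0 lower (median log2 ratio 2.13). Bst2, an antiviral membrane protein, had 119, 697, 247 and 146 CPM over the 4 libraries, and Rsad2 (viperin) 2.72, 39.1, 9.66 and 1.65 CPM. Both peaked at 1 dpi. At 3 dpi 10 of the 14 genes were at least 2-fold lower than at 1 dpi and 0 higher. Acute phase genes were at least 2-fold higher in 6 of 18 cases at 1 dpi and lower in 1. At 7 dpi against 3 dpi they were lower in 12 of 18 and higher in 1. Without the cells carrying Tnn, Lrrc15 or cartilage UMIs, 5 of 17 were lower at this last step and 1 higher. Saa3, which encodes a serum amyloid, had the largest 1 dpi ratio of genes with at least 100 UMIs at 1 dpi and 10 in Uninjured, 124 (82.5 to 197), but was found in 4.64% of the members there, and 11.5% of its UMIs lay in a single cell.

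Chemokine genes were ordered differently before and after injury. Ccl11 (eotaxin), an eosinophil attractant, stood at 1882, 907, 341 and 112 CPM, highest before injury. Ccl2, a monocyte attractant, stood at 341, 970, 1164 and 223 CPM. Of 4 neutrophil attractants 3 were at least 2-fold higher at 1 dpi than in Uninjured, among them Cxcl5 at 8.62, 320, 320 and 30.9 CPM. Cxcl5 was found in 12.25% of 1 dpi members, and 9.85% of its UMIs there lay in 1 cell. The most abundant of the 4 attractants, Cxcl1, was highest in Uninjured, at 1470, 805, 992 and 501 CPM. Il6 stood at 22.01, 113, 181 and 37.0 CPM, so Ccl2, Cxcl5 and Il6 were higher at 1 and 3 dpi than in the outer libraries. At 3 and 7 dpi Ccl11 stood at 530 and 482 CPM, and Cxcl5 at 208 and 14.2 CPM, without the cells carrying Tnn, Lrrc15 or cartilage UMIs. UMIs of neutrophil genes were present in the same cells: the 7 genes of the neutrophil list, led by S100a8 in Uninjured and by S100a9 after injury, summed to 4.23, 231, 95.2 and 38.3 CPM, with S100a9 found in 53.0% of 1 dpi members. Macrophage genes, led by Lyz2, summed to 15.1, 77.4, 51.1 and 57.4 CPM. Their part in the chemokine and acute phase values was not tested.

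**Figure D4:**
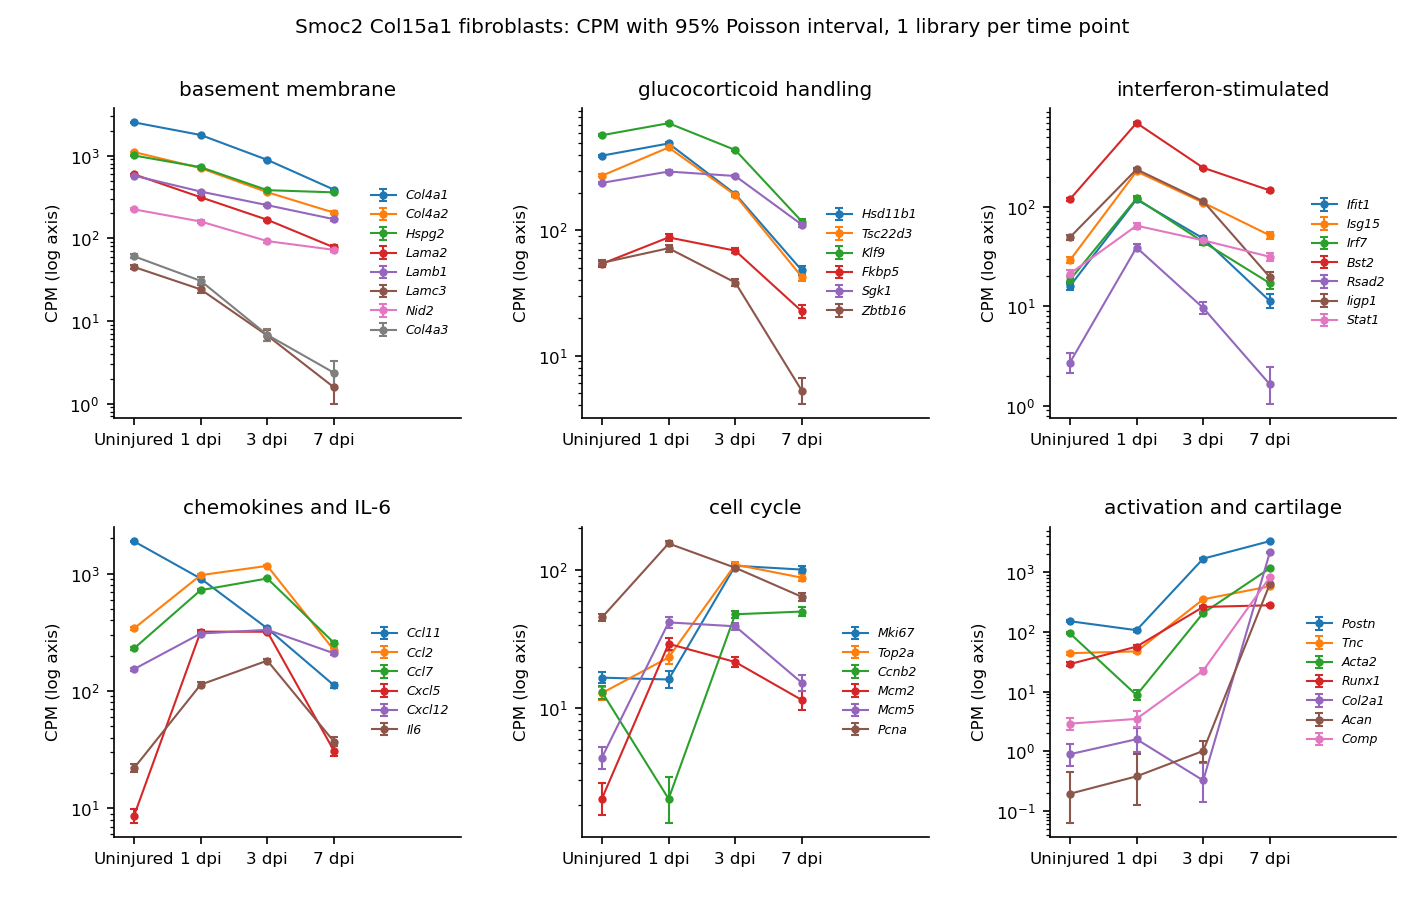
CPM (log axis) of selected genes of 6 groups in Smoc2 Col15a1 fibroblasts in Uninjured, 1, 3 and 7 dpi, with exact Poisson 95% intervals and 1 library per time point; lines join the values of a gene. Interferon-stimulated genes are highest at 1 dpi (Bst2 697 CPM), Postn stands at 1700 CPM at 3 dpi, and Col2a1 reaches 2167 CPM at 7 dpi.

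Cell cycle genes differed in timing. At 1 dpi 8 of 16 were at least 2-fold higher than in Uninjured and 2 lower, the cyclin genes Ccnb1 and Ccnb2. The higher ones included the replication genes Mcm2 (2.21, 29.2, 21.6 and 11.4 CPM) and Pcna (45.3, 155, 104 and 63.9 CPM). At 3 dpi 9 of 16 were at least 2-fold higher than at 1 dpi and 0 lower, among them the proliferation marker Mki67 (16.6, 16.1, 107 and 101 CPM) and the mitotic cyclin gene Ccnb2 (13.1, 2.20, 47.8 and 50.0 CPM). Members with at least 3 UMIs of 6 mitotic genes, after thinning to 3000 UMIs, made up 0.90% (0.58 to 1.33) in Uninjured, 0.98% (0.51 to 1.71) at 1 dpi, 11.3% (9.86 to 12.9) at 3 dpi and 13.4% (11.4 to 15.5) at 7 dpi. Among members without Tnn, Lrrc15 or cartilage UMIs these shares were 0.64%, 0.99%, 7.00% (5.70 to 8.48) and 6.34% (3.80 to 9.83). In Pi16 fibroblasts these shares were 1.98%, 1.79%, 6.96% and 11.8%. Free RNA can enter such a count, and Mki67 was found in 22% of thinned Ptprc-positive cells at 3 dpi, which also divide.

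Genes of activation were more often higher than lower at 3 against 1 dpi. At the other steps genes went both ways with more higher than lower, by a margin that depended on the cells carrying Tnn, Lrrc15 or cartilage UMIs. Of 23 activated fibroblast genes 6 were at least 2-fold higher and 5 lower at 1 dpi than in Uninjured (median 0.11), 13 were at least 2-fold higher at 3 than at 1 dpi and 1 lower (median 1.33), and 9 were higher and 4 lower at 7 than at 3 dpi (median 0.09). Without the cells carrying Tnn, Lrrc15 or cartilage UMIs, of which 25 were Uninjured, these counts were 8 and 2 of 21 (median 0.90), 9 and 1 of 21 (median 0.74), and 5 and 4 of 21 (median -0.00). Tnn and Lrrc15 belong to this list, so the split itself took them out of these counts. Postn stood at 152, 107, 1700 and 3345 CPM, and at 86.1, 89.4, 1051 and 2091 CPM without those cells. Tnc (tenascin C) stood at 44.2, 47.4, 354 and 585 CPM, and without those cells at 11.4, 45.2, 198 and 197 CPM, so that its levels in Uninjured and 1 dpi were alike with all members but not without those cells, and those at 3 and 7 dpi were alike only without them. Acta2 stood at 95.1, 8.74, 208 and 1173 CPM, and at 51.7, 8.21, 67.0 and 425 CPM without those cells. Prg4, which encodes the lubricant lubricin, was one of the lower genes at 7 dpi, at 124, 637, 1280 and 73.5 CPM over the 4 libraries. As the mean of single-cell CPM, which gives each cell equal weight, Postn stood at 57.2, 55.1, 953 and 2974 CPM. The direction at 3 and 7 dpi was the same on both scales. Postn was also found in 61.1% of thinned Ptprc-positive cells at 7 dpi, against 89.4% of members. Genes of pericytes and smooth muscle, led by Des at 1 dpi and by Acta2 in the other libraries, summed to 157, 70.0, 279 and 1332 CPM, and those of tenocytes, led by Thbs4, to 197, 209, 827 and 1283 CPM. Their part in the late values was not tested.

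Basement membrane genes, Col4a3 left out, were at least 2-fold lower in 5 of 24, 4 of 25 and 7 of 25 cases at the 3 steps and higher in 1, 3 and 4, with medians of -0.50, -0.67 and -0.69. With the cells carrying Tnn, Lrrc15 or cartilage UMIs removed, 5 of 24 were lower and 0 higher at 1 dpi (median -0.54), 2 of 24 were lower and 3 higher at 3 against 1 dpi (median -0.31), 2 of 23 were lower and 2 higher at 7 against 3 dpi (median 0.12), and Col4a1 went from 1375 to 1583 CPM, against 888 to 388 CPM with all members. Glucocorticoid-responsive genes, Hsd11b1 left out, were at least 2-fold lower in 10 of 12 cases at 7 against 3 dpi and higher in 0 (median -1.52), and in 8 of 12 without those cells (median -1.34). Tsc22d3 stood at 273, 460, 191 and 42.4 CPM, and the transcription factor gene Zbtb16 at 55.0, 72.0, 38.3 and 5.22 CPM. At 7 dpi they stood at 74.2 and 22.3 CPM without those cells, and the marker Hsd11b1 was then no longer 2-fold lower than at 3 dpi.

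Of 18 chondrogenic genes 17 were at least 2-fold higher at 7 than at 3 dpi, and 13 of 15 without the cells carrying Tnn, Lrrc15 or cartilage UMIs, a split that used Col2a1 and Acan. Col2a1, the main collagen of cartilage, stood at 0.893, 1.60, 0.325 and 2167 CPM, and Acan (aggrecan) at 0.194, 0.380, 1.01 and 638 CPM. Ptprc-positive cells without Pdgfra held 2798 CPM of Col2a1 and 627 CPM of Acan in the same library. The members' Col2a1 lay below the level in those cells and their Acan close to it. How these UMIs came into the Ptprc-positive cells was not tested. Of the osteogenic genes, 7 of 11 were at least 2-fold higher at 1 dpi than in Uninjured (6 of 11 without the cells carrying Tnn, Lrrc15 or cartilage UMIs). At 3 dpi 6 of 12 were lower than at 1 dpi and 1 was higher. At 7 dpi 8 of 12 were higher than at 3 dpi (4 of 7 without those cells, with 1 lower). Few cells stood behind the 1 dpi values, where 6847 of 7035 Bglap UMIs lay in 1 cell and the 154 Ibsp UMIs in 5 cells. The bone matrix gene Ibsp stood at 1024 CPM in members and at 1483 CPM in Ptprc-positive cells. Sox9 was found in 30.3% of thinned members and 19.9% of thinned Ptprc-positive cells at 7 dpi. In Ptprc-positive cells it stood at 107 CPM, below its level with all members. Members without Tnn, Lrrc15 or cartilage UMIs held less of it, 76.7 CPM.

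Uninjured members also differed among themselves. Over cells thinned to 3000 UMIs, the median ratio of variance to mean was 1.19 for 758 genes with a mean over 0.5 UMI. Apod had the largest ratio, 38.3. It was found in 56.4% of the cells, with 0 UMIs at the 10th and 6 at the 90th percentile. Cxcl14 had a ratio of 13, with 0 and 37 UMIs at these percentiles, and Ccl2, found in 12.2% of cells, one of 14.8. The others of the 10 highest were the nuclear RNA Malat1 (21.2), Gsn, Gm42418, Col3a1, the metallothionein gene Mt1, Dcn and Apoe. Malat1, Dcn, Gsn, Gm42418 and Sparc led the genes by abundance in UMIs.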

How the data were processed

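Single-cell suspensions of 4 tibial muscle pools were profiled on the 10x platform. The authors used Cell Ranger 5.0.0 with the STAR aligner and deposited whole-number UMI counts for every gene in each called barcode; the submitters' processing notes also name Seurat 3.1.1 and mm10. Reads were down-sampled in an aggregation step, and the sources used here do not say if the deposited counts come from before or after it. Of 62665 barcodes, 59824 were within the mitochondrial limit. Doublets were not removed in the main analysis; an alternative applied limits of 2 SD on log10 UMIs and genes per library and removed the 7.5% of cells with the highest Scrublet scores.

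Counts were summed per library and population, giving 12 sums over 3 populations. edgeR 4.0.16 in R 4.3.3 tested the populations with a quasi-likelihood fit, TMM scaling, the library as a block, filterByExpr and Benjamini-Hochberg adjustment, called at 0.05. Other work used Python 3.11.15, scanpy 1.11.5, numpy 2.4.6, scipy 1.17.1, pandas 2.3.3, anndata 0.12.19 and matplotlib 3.10.9, with DESeq2 1.42.0 as an alternative. Adjusted p-values that DESeq2 left missing stayed missing. In simulated sums of 12309 genes, the test against Pi16 fibroblasts recovered 99% of genes changed 2-fold and 100% of those changed 4-fold, and the test against C7 Gdf10 fibroblasts 52% and 93%. The simulation used a fixed dispersion that was not estimated from these data, and the same fold in every library. These percentages therefore do not give the power of the test in these libraries. Identifiers were matched to GENCODE M21 (GRCm38) for 99.6% of genes.

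Label markers were left out of the lists' counts, a choice made after seeing the data. The members, the label markers and the gene lists were chosen with earlier results of these data known. Named genes are those of the lists, the 12 of largest fold change in each direction per population comparison with the same direction in all 4 libraries, the 8 of largest ratio per time step with at least 100 UMIs in the higher and 10 in the lower library, and the 10 most variable and 15 most abundant genes of Uninjured members; the text gives a part of these, and some genes are not reported here. The 13 alternatives to the population test changed 1 choice each, apart from the SD limits with doublet removal, which changed these together: the mitochondrial limit, the Smoc2 and Col15a1 threshold, thinning to 3000 UMIs, the SD limits with doublet removal, the cells with Tnn, Lrrc15 or cartilage UMIs, the tool, the scaling, the filter on low counts, and each library left out. A fit of only the 2 populations compared was run in addition for the counts of calls.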

Additional observations from a re-analysis of the deposited data

Results flagged for a closer look

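Col11a1, a chain of the fibril-forming collagen of cartilage, moved in opposite directions in the members and in Pi16 fibroblasts between 1 and 3 dpi. Its CPM ratio of 3 over 1 dpi was 0.194 (0.148 to 0.253) in members and 13.2 (1.92 to 568) in Pi16 fibroblasts. The difference was not tested, since each time point was a single library. In members 80.2% of the Col11a1 UMIs at 1 dpi lay in 1 cell, and with the SD limits and doublet removal the ratio was 1.71.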

How the results depend on the processing

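Depth and threshold moved the share of members among Pdgfra-positive, Ptprc-negative cells. Thinned to 3000 UMIs it was 46.7% in Uninjured, 44.1% at 1 dpi, 32.9% at 3 dpi and 14.9% at 7 dpi. With at least 2 UMIs of Smoc2 and Col15a1 it was 43.7% at 3 dpi and 33.2% at 7 dpi, with at least 5 it was 36.2% at 1 dpi, 32.9% at 3 dpi and 13.6% at 7 dpi, with a mitochondrial limit of 5% it was 36.6% at 1 dpi, and with the SD limits and doublet removal 35.7% in Uninjured. Counts of 2-fold genes fell with thinning, which leaves fewer UMIs, to 472 lower at 1 dpi, 278 higher and 233 lower at 3 dpi, and 541 higher at 7 dpi. With at least 100 UMIs required they were 638 and 394 at 1 dpi, 617 and 643 at 3 dpi, and 701 higher at 7 dpi. Without cells with Tnn, Lrrc15 or cartilage UMIs, added after seeing the data, 452 were lower at 3 dpi and 796 higher at 7 dpi, and as the mean of single-cell CPM 524 were lower at 3 dpi.

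Leaving out 1 library gave 612 to 1200 genes higher and 655 to 1069 lower than in Pi16 fibroblasts, and 21 to 189 higher and 85 to 268 lower than in C7 Gdf10 fibroblasts. Against C7 Gdf10 fibroblasts the higher calls were 250 with thinning, 328 without the cells named above, 199 with DESeq2, 403 without a filter on low counts and 299 in the fit of 2 populations, and the lower calls were 354 without those cells, 417 with DESeq2 and 365 without the filter. Higher calls made up 35.1% of these calls with TMM and 49.0% with library totals, which moved the median of all genes to 0.14. The cause of these shifts was not tested. Of 3513 values of named population results for 257 genes, 3178 kept direction and call, 332 lost the call and 3 turned: Ccnd1 (-0.0451) and Saa3 (0.0151) against Pi16 and Irf7 (0.00754) against C7 Gdf10 fibroblasts, each with thinning. Of 406 values of named time ratios 253 stayed within counting error, 150 moved and 3 turned: Car2 (1.69) and Col11a1 (1.71) at 3 over 1 dpi with the SD limits and doublet removal, and Col4a3 (1.08) at 7 over 3 dpi without cells with Tnn, Lrrc15 or cartilage UMIs. No paired analysis was possible because each time step compared single libraries, whereas the population tests had the library as a block. Values below about 1 CPM rest on few UMIs, and 19 cells stand behind C7 Gdf10 fibroblasts at 7 dpi.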

Other observations

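A single 1 dpi member also carried most of the osteocalcin UMIs that the members of its library held. Bglap stood at 535 CPM in 1 dpi members, with 6847 of its 7035 UMIs in 1 cell and 14.4 CPM without it. Bglap2, Col11a2 and Car2 were likewise held by a single cell, with 92.5%, 92.1% and 96.6% of their UMIs. The clock genes Nr1d1 (186, 6.54, 7.67 and 61.6 CPM in Uninjured, 1, 3 and 7 dpi members) and Dbp (138, 6.23, 3.25 and 39.0 CPM) were low at 1 and 3 dpi, and the time of day of sampling is not given in the sources used here. Nmb, a bombesin-like peptide gene, stood at 121, 216, 81.3 and 7.01 CPM in members against 12.2, 14.2, 16.2 and 3.14 CPM in Pi16 fibroblasts, a log2 fold change of 2.99 ± 0.31. The imprinted RNA gene H19 stood at 27.9, 2.36, 73.8 and 851 CPM in members.

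Cells with UMIs of Sgce, Col4a3 and Myl9 together numbered 847 in the 4 libraries, of which 94.3% held Pdgfra and 392, 46.3%, were members. Most of them, 759, were Uninjured cells. There 46.8% (43.17 to 50.39) were members, against 34.1% of all Pdgfra-positive, Ptprc-negative cells. At 1 dpi 21 of 59 were members, 35.6% (23.55 to 49.13), an interval that holds the 38.6% of all Pdgfra-positive, Ptprc-negative cells. The bases of these shares differ, since 721 of the 759 Uninjured and 53 of the 59 1 dpi cells held Pdgfra. At 3 dpi 12 of 22 and at 7 dpi 4 of 7 such cells were members. Col4a3 is itself a label marker of the members. Besides the neutrophil, macrophage, pericyte and tenocyte lists given above, 6 marker lists of other cell types were summed in the members. The 10 muscle fibre genes summed to 25.2, 12.9, 26.5 and 32.5 CPM, with 2, 1, 1 and 1 of them at 0. The 6 satellite cell genes summed to 12.7, 12.2, 22.2 and 8.01 CPM, 9 endothelial genes, led by Fabp4, to 21.1, 5.63, 34.9 and 61.2 CPM, 6 Schwann cell genes to 92.7, 71.2, 30.7 and 81.4 CPM, 8 lymphocyte genes to 3.30, 14.6, 8.08 and 14.9 CPM, and 6 genes of mature adipocytes to 39.1, 4.03, 2.19 and 8.01 CPM with 2, 3, 1 and 4 of them at 0.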
